A study of Homo sapiens with 8 samples.

Results

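The ABC drug efflux pumps described here are 10 human genes, ABCB1, ABCB4, ABCC1, ABCC2, ABCC3, ABCC4, ABCC5, ABCC6, ABCC10 and ABCG2, chosen by name. A gene was measured through the transcript cluster (a set of array probes that together report 1 transcript region) whose only platform symbol was that gene. This gave 9 measured pumps, each with 1 cluster, among 18417 genes in all. ABCC6 had no cluster of its own by this rule and was not analysed here.

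RNA came from U266/s, a human multiple myeloma line that is the parent here, and from its melphalan-resistant derivative U266/LR7; how U266/LR7 was selected, and whether it is 1 clone, is not given in the sources used here. In each line 1 array was from cells with a negative control oligonucleotide, 1 from cells with melphalan (a DNA-alkylating drug, 100 µM), 1 from cells transfected with miR-221 and miR-222 inhibitors (100 nM), which block a pair of microRNAs, and 1 from cells that received both agents, all collected at 12 h. The transfection tag of the melphalan-alone arrays reads none, while the protocol reads as if they received the control oligonucleotide. Comparisons with and without melphalan, and those of inhibitors with none under melphalan, may therefore also hold a difference in transfection. There is 1 array per condition and 8 in all. Within a line and melphalan state, the array with inhibitors and the array without serve as each other's replicate. Nothing in the labels says which arrays came from separate cultures. Every p-value therefore measures only the spread that the fitted terms leave between these arrays. That spread may be technical, and it also holds any inhibitor effect that differs between conditions. The averages over lines and over inhibitors come from a fit without a line by melphalan term. Their spread, and so their errors, also hold any melphalan response that differs between the lines.

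ABC transporters are membrane proteins that hydrolyse ATP to move substrates across membranes. ABCB1 (P-glycoprotein) exports bulky hydrophobic drugs, and its neighbour on chromosome 7, ABCB4, moves phosphatidylcholine into bile. The ABCC genes encode the multidrug resistance proteins, of which ABCC1 and ABCC2 export glutathione, glucuronide and sulfate conjugates; melphalan forms glutathione conjugates in cells. ABCC4 and ABCC5 encode shorter members that carry cyclic nucleotides and nucleotide analogues. ABCG2 (breast cancer resistance protein) is a short transporter that works as a dimer. Myeloma cells are malignant plasma cells, in which efflux pumps are studied as one route of drug resistance.

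All 10 plasma cell markers checked, among them SDC1, TNFRSF17 and IRF4, lay above the lower quartile of the genes on each of the 8 arrays, whereas 2 of 4 measured B-cell markers and 4 or 5 of 7 T and NK-cell markers lay below it. Of 7 myeloid markers 1 to 3 lay below it, and of 7 stromal and epithelial markers 0 or 1. Correlations over all genes were 0.909 to 0.933 for arrays of different lines, 0.986 to 0.996 among the U266/LR7 arrays and 0.939 to 0.994 among those of U266/s. The U266/s arrays with melphalan alone and with both agents had the narrowest interquartile ranges, 2.75 and 2.80 log2 units, against 3.08 to 3.31 on the other arrays. In bulk RNA, fewer expressing cells and less transcript per cell cannot be told apart.

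The pumps fell into those with signal in both lines, those with signal in U266/s only, and those with low signal throughout. Signals are log2 values of the array's RMA summary, and a signal is called low here if it lay under the lower quartile of all genes on its array, which ranged from 5.81 to 6.02. ABCC1, ABCC5, ABCC10 and ABCG2 were above that level on all 8 arrays. ABCC4 and ABCC2 were above it on the 4 U266/s arrays and below it on the 4 U266/LR7 arrays. ABCC3 lay just above it, between 5.86 and 6.30. ABCB1 (4.81 to 5.28) and ABCB4 (4.54 to 4.73) were low on all 8 arrays. Signals of different genes come from different probes and are not set against each other.

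**Figure D1:**
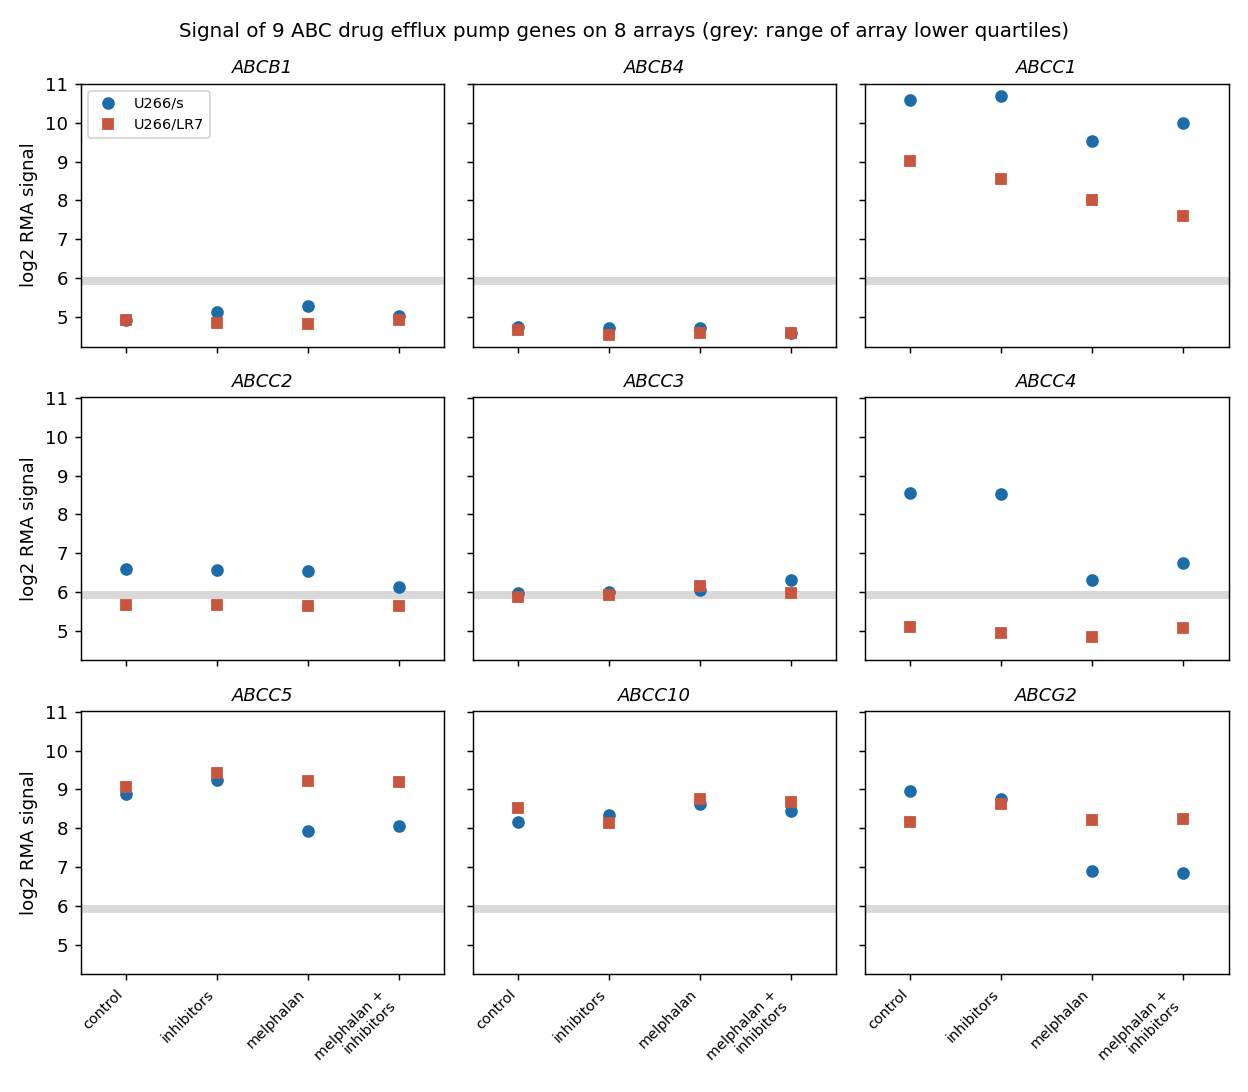
Each panel shows 1 pump gene, with its log2 RMA signal on the y axis and the 4 treatments on the x axis, for U266/s (blue circles) and U266/LR7 (red squares); each point is 1 array, and the grey band spans the lower quartiles of the 8 arrays (5.81 to 6.02). ABCC4 in U266/s dropped from 8.53 and 8.56 to 6.31 and 6.76 with melphalan and lay under the band in U266/LR7, and ABCG2 and ABCC5 separated between the lines on the melphalan arrays.

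The first comparison asked which pumps distinguish the resistant from the parental line before the drug is given. Without melphalan ABCC4, ABCC1 and ABCC2 were lower in U266/LR7 and no pump was higher. By limma with Benjamini-Hochberg adjustment over all genes at 0.05, 3 of 9 pumps were thus called, all lower. Of all genes 34.7% were called, 16.9% higher and 17.8% lower, so the pumps' share was close to the background.

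ABCC4, the short multidrug resistance protein that exports cyclic AMP and nucleotide analogues, had the largest difference among the pumps. Its signal was 8.56 in the U266/s control and 8.53 with inhibitors, against 5.09 and 4.95 in U266/LR7. The U266/LR7 values were low, and the lines did not overlap. The difference, U266/LR7 minus U266/s, was -3.52 ± 0.16 log2 units (SE, 2 arrays against 2, limma adjusted p = 2.57e-08). Since the U266/LR7 signal lay near the floor of the array, the size of this difference is limited by that floor.

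ABCC1, the conjugate exporter MRP1, was lower in U266/LR7 but far from the floor there. It was measured at 10.59 in the U266/s control and 10.70 with inhibitors, and at 9.02 and 8.56 in U266/LR7. Both U266/LR7 arrays lay below both U266/s arrays. The difference was -1.86 ± 0.21 (adjusted p = 3.32e-05), a 3.63-fold lower signal in the resistant line.

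ABCC2, the apical conjugate pump MRP2, was at 6.59 and 6.56 in U266/s and at 5.65 and 5.65 in U266/LR7, where it was low. Its difference was -0.92 ± 0.14 (adjusted p = 0.000371). In U266/s it was itself only a little above the lower quartile.

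The other 6 measured pumps did not pass the test without melphalan. Of these, ABCG2, ABCC3, ABCB1 and ABCB4 also had lines that did not overlap, so separate lines alone do not set the called pumps apart. The share of all genes with separate groups was not counted. ABCG2 was at 8.96 and 8.74 in U266/s and at 8.16 and 8.62 in U266/LR7, with a difference of -0.46 ± 0.17 (adjusted p = 0.0611). Without the U266/LR7 inhibitor array this became -0.73 (adjusted p = 0.00647), and among genes above the median signal the adjusted p was 0.0442 (0.00647 to 0.475 over all alternatives). ABCC5 (0.17 ± 0.15), ABCC10 (0.07 ± 0.16), ABCC3 (-0.09 ± 0.14), ABCB1 (-0.14 ± 0.14) and ABCB4 (-0.12 ± 0.13) had differences about the size of their errors.

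Melphalan in U266/s was the comparison in which most pumps changed within a line. ABCC4, ABCG2, ABCC5 and ABCC1 fell and no pump rose. The count was 4 of 9 lower, against a background of 43.4% of all genes called, 18.4% higher and 24.9% lower. The same 4 pumps fell after the values were quantile normalized again, where ABCC10 was called higher (0.59, adjusted p = 0.0173, and 0.0173 to 0.790 over all alternatives); of the calls over all genes 42.5% were higher, a share that became 51.3% when arrays were centred on their medians and 53.4% after quantile normalization.

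ABCC4 went from 8.56 to 6.31 with melphalan, and from 8.53 to 6.76 with melphalan on top of the inhibitors. Both melphalan arrays remained above the lower quartile and below both arrays without the drug. The change was -2.01 ± 0.16 log2 units (adjusted p = 5.7e-06), from 8.54 ± 0.02 to 6.54 ± 0.31 (SD, n = 2), a 4.02-fold fall.

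ABCG2, which works as a dimer, had a fall of like size. Its signal was 8.96 and 8.74 without the drug and 6.90 and 6.83 with it. The pair differences were -2.06 and -1.91, and the change was -1.98 ± 0.17 (adjusted p = 9.06e-06).

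ABCC5, the short pump for cyclic GMP and nucleotide analogues, went from 8.89 to 7.93 and, on the inhibitor arrays, from 9.24 to 8.07. The groups did not overlap, as was also so for the uncalled ABCC2, ABCC3, ABCC10 and ABCB4. For ABCC5 the change was -1.07 ± 0.15 (adjusted p = 0.0002).

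ABCC1 went from 10.59 to 9.53 and from 10.70 to 9.99, a change of -0.89 ± 0.21 (adjusted p = 0.00568). This call was lost without the U266/s melphalan array (-0.53, adjusted p = 0.102) and without the U266/s inhibitor array (-0.76, adjusted p = 0.066), with adjusted p between 0.000261 and 0.102 over all alternatives.

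The remaining pumps did not pass in U266/s. ABCC10, a long multidrug resistance protein, was at 8.16 and 8.34 without and 8.63 and 8.45 with melphalan (0.29 ± 0.16, adjusted p = 0.168). ABCC2 (-0.25 ± 0.14), ABCC3 (0.20 ± 0.14), ABCB1 (0.12 ± 0.14) and ABCB4 (-0.07 ± 0.13) had smaller values. The 2 U266/s melphalan arrays are those with the narrow signal range. After quantile normalization, which gives all arrays 1 distribution, the changes were -2.02 for ABCC4, -1.95 for ABCG2, -0.80 for ABCC5 and -0.61 for ABCC1, each still called. On these arrays 4 of 7 myeloid markers rose (log2 of their summed level 10.19 and 10.27, against 8.85 and 9.05 without the drug) while 5 of 10 plasma cell markers fell and 1 rose (14.55 and 14.56 against 14.87 and 14.77). Of the myeloid markers 1 of 7 was low on each of these 2 arrays. The part of either list in the pumps' falls was not tested.

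In U266/LR7 melphalan changed only ABCC1 among the pumps tested, which fell. The count was 1 of 9, against 6.62% of all genes called, 3.02% higher and 3.61% lower. ABCC1 was at 9.02 in the control and 8.01 with melphalan, and at 8.56 with inhibitors and 7.59 with both. The melphalan arrays lay below the arrays without it, while the groups of the uncalled ABCC2, ABCC3 and ABCC10 did not overlap either. The pair differences of ABCC1 were -1.01 and -0.96. The change was -0.99 ± 0.21 (adjusted p = 0.0188), a 1.98-fold fall. The call did not hold when the U266/LR7 control array was left out (-0.73, adjusted p = 0.0822), when the U266/LR7 array with both agents was left out (-0.76, adjusted p = 0.23) or with transfection as 3 levels (-0.89, adjusted p = 0.0677), with adjusted p between 0.00594 and 0.23 over all alternatives.

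ABCG2 and ABCC5, which fell in U266/s, stayed within their spread in U266/LR7. ABCG2 was at 8.16 and 8.62 without and 8.20 and 8.23 with melphalan (-0.18 ± 0.17, adjusted p = 0.666). ABCC5 was at 9.05 and 9.43 without and 9.20 and 9.20 with it (-0.04 ± 0.15, adjusted p = 0.935). ABCC10 was at 8.76 and 8.68 with the drug and at 8.52 and 8.13 without it, and did not pass the test (0.39 ± 0.16, adjusted p = 0.196). ABCC4 and ABCC2 were low on all 4 U266/LR7 arrays, so a fall there could not be measured.

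**Figure D2:**
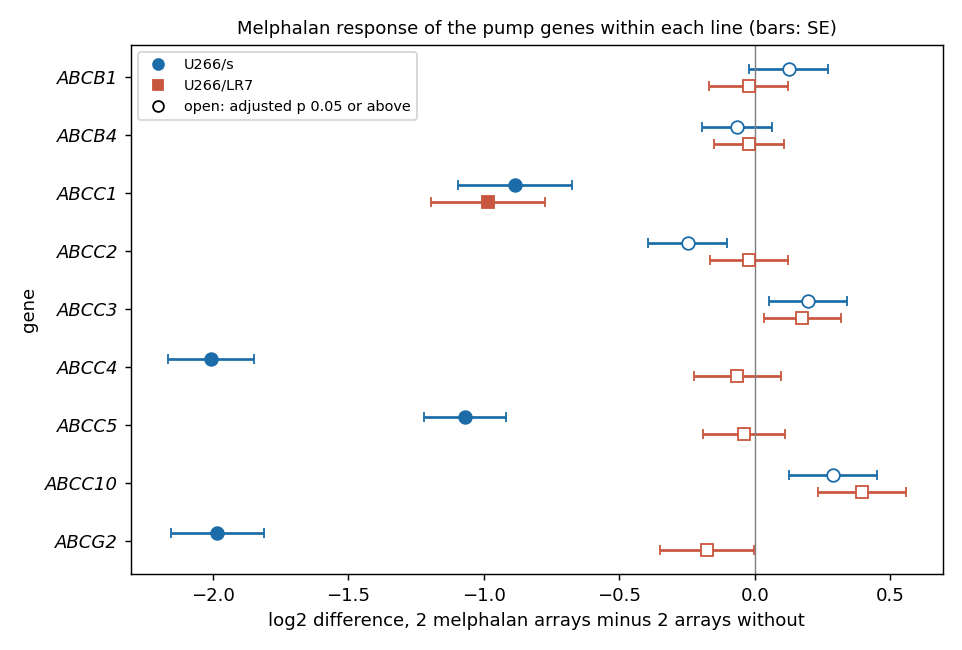
The x axis gives the log2 difference with melphalan, 2 arrays minus 2, for each pump gene on the y axis, in U266/s (blue circles) and U266/LR7 (red squares); bars are SE from limma and open symbols did not pass an adjusted p of 0.05. ABCC4 (-2.01), ABCG2 (-1.98) and ABCC5 (-1.07) fell in U266/s and stood at -0.06, -0.18 and -0.04 in U266/LR7, whereas ABCC1 fell in both (-0.89 and -0.99). ABCC4 was low on all 4 U266/LR7 arrays, so a fall there could not be measured.

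The difference between these responses was tested by the melphalan by line interaction. It was called for ABCC4, ABCG2 and ABCC5, 3 of 9 pumps and all positive, against 23.9% of all genes (17.9% positive and 5.99% negative). Of the interaction calls over all genes 74.9% were positive, which became 63.4% when arrays were centred on their medians and 55.1% after quantile normalization. ABCG2 had an interaction of 1.81 ± 0.24 (adjusted p = 0.000489) and ABCC5 of 1.03 ± 0.21 (adjusted p = 0.00507). The ABCC5 call was lost without the U266/LR7 melphalan array (0.88, adjusted p = 0.0526; 0.00271 to 0.0526 over all alternatives). The ABCC4 interaction of 1.94 ± 0.22 (adjusted p = 0.000236) does not measure a smaller response in U266/LR7, because the gene was low there already. For ABCC1 the interaction was -0.10 ± 0.30 (adjusted p = 0.843), so a difference between its falls was not detectable with these arrays.

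With melphalan present, the lines differed in another way than without it. ABCG2 and ABCC5 were higher in U266/LR7, and ABCC1, ABCC4 and ABCC2 were lower. That makes 5 of 9 pumps, against a background of 51.7% of all genes (27.7% higher and 24% lower). Of these calls over all genes 53.6% were higher, which became 46.7% when arrays were centred on their medians and 47.8% after quantile normalization. ABCG2 in U266/LR7 was at 8.20 and 8.23, whereas its U266/s signals were 6.90 and 6.83, a difference of 1.35 ± 0.17 (adjusted p = 6.52e-05) and a 2.55-fold higher signal. ABCC5 was at 9.20 and 9.20 against 7.93 and 8.07, a difference of 1.20 ± 0.15 (adjusted p = 5.88e-05). Neither gene's lines overlapped on the melphalan arrays, but nor did those of ABCB1, ABCB4 and ABCC10, which were not called.

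ABCC1 stayed lower in U266/LR7 under melphalan (8.01 and 7.59 against 9.53 and 9.99; -1.96 ± 0.21, adjusted p = 1.85e-05). The lowest U266/s signal of ABCC1, 9.53, remained above the highest U266/LR7 signal, 9.02. The ABCC4 difference was -1.58 ± 0.16 (adjusted p = 1.13e-05), and that of ABCC2 was -0.70 ± 0.14 (adjusted p = 0.00194), with ABCC2 in U266/s at 6.53 with melphalan and 6.13 with both agents. ABCB1 was at -0.29 ± 0.14 (adjusted p = 0.118), and was called lower only when the U266/s array with both agents was left out (-0.46, adjusted p = 0.0493; 0.0493 to 0.614 over all alternatives). These line and melphalan comparisons share their arrays, so their counts are not independent of each other.

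**Figure D3:**
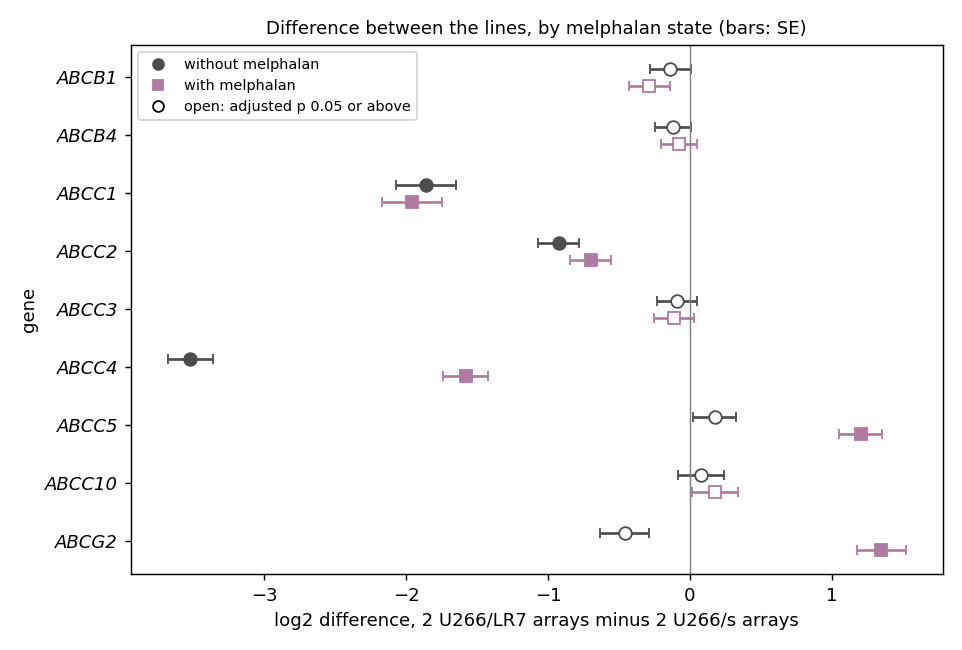
The x axis gives the log2 difference U266/LR7 minus U266/s, 2 arrays against 2, for each pump gene on the y axis, without melphalan (grey circles) and with it (purple squares); bars are SE from limma and open symbols did not pass an adjusted p of 0.05. ABCG2 moved from -0.46 to 1.35 and ABCC5 from 0.17 to 1.20, ABCC4 from -3.52 to -1.58, and ABCC1 stood at -1.86 and -1.96.

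Averaged over all 4 matched pairs in the additive fit, 3 of 9 pumps were called lower in U266/LR7 and 0 higher, against 33.5% of all genes (18% higher and 15.5% lower). ABCC2 was lower by this average as well (-0.81 ± 0.11, adjusted p = 0.00123), as was ABCC4 (-2.55 ± 0.37, adjusted p = 0.00178). ABCC5 was higher in 4 of 4 pairs (0.69 ± 0.23) but missed the threshold (adjusted p = 0.05003, and 0.00021 to 0.155 over the alternatives). Among the alternatives, it passed with median centring (0.67, adjusted p = 0.0382), without the U266/LR7 control array (0.86, adjusted p = 0.0256) and without the U266/s inhibitor array (0.85, adjusted p = 0.0432). Both ABCC5 and ABCG2 were called higher in U266/LR7 in the fits with the line by melphalan term and with every two-way term. For ABCG2 the adjusted p ran from 0.00897 to 0.730 over the alternatives. The ABCG2 average of 0.44 ± 0.36 combines pairs from -0.80 to 1.40 and describes neither melphalan state.

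The inhibitors of miR-221 and miR-222 called 0 of 9 pumps in limma, against 0% of all genes, and 375 genes (2.04%) had an unadjusted p under 0.05. That is a smaller share than this threshold gives without any effect, and the spread of this additive fit also holds the line by melphalan differences. With a line by melphalan term the inhibitors called 8 genes (0.0434%) and 0 pumps. For ABCC1 the pair differences, inhibitors minus none, were -0.46 without and -0.42 with melphalan in U266/LR7, and 0.11 and 0.46 in U266/s. For ABCG2 the U266/LR7 pairs gave 0.46 and 0.04 and the U266/s pairs -0.22 and -0.07. In both genes the pairs with melphalan may also hold a difference in transfection. A fit with an inhibitor by line term, chosen after these values were seen, gave -0.73 ± 0.21 for ABCC1 and 0.39 ± 0.22 for ABCG2 (adjusted p = 0.886 for each), with 0% of all genes called. In the same fit the inhibitors called 8 genes in U266/LR7 (0.0434%) and 0 in U266/s, and 0 pumps in either line. Averaged over 4 pairs, the members ranged from -0.12 (ABCC10) to 0.22 (ABCC5), each with an adjusted p of 0.9999.

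Gene span was examined after these values were seen. In the RefSeq annotation (GRCh38.p14) the pumps that fell in U266/s span 98.0 kb (ABCC5), 141 kb (ABCG2), 194 kb (ABCC1) and 282 kb (ABCC4). Of the measured pumps that did not pass, ABCC10 spans 24.5 kb, ABCC3 57.4 kb and ABCC2 70.0 kb, while ABCB4 (110 kb) and ABCB1 (210 kb) were low throughout. The median over 16902 protein-coding genes was 27.3 kb. With melphalan in U266/s, 43.9% of protein-coding genes over 100 kb were called lower, against 36.1% of those from 20 to 100 kb and 10.5% of those under 20 kb. In U266/LR7 these shares were 17.9%, 0.96% and 0.496%, and ABCC1 was the pump called there. The part of span in the pumps' falls was not tested.

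**Figure D4:**
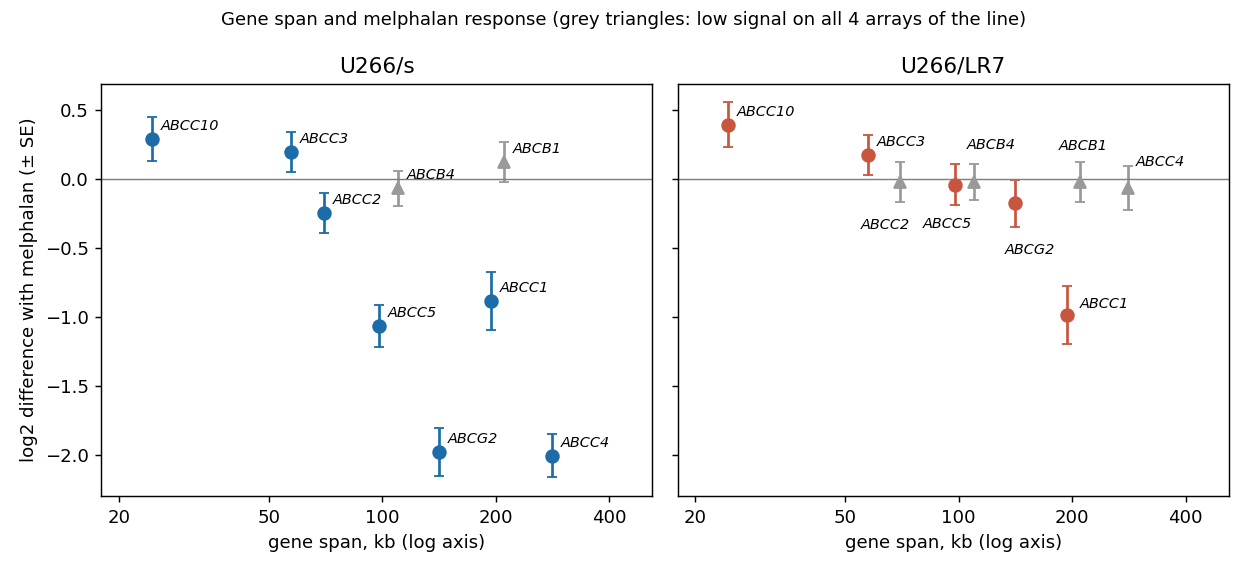
Gene span in kb (log axis) is plotted against the log2 difference with melphalan (2 arrays minus 2, bars are SE) for the 9 pumps in U266/s (left) and U266/LR7 (right); grey triangles are genes under the lower quartile on all 4 arrays of the line. In U266/s the 4 pumps that fell (-0.89 to -2.01) span 98.0 kb or more, but so do ABCB1 (210 kb, 0.12) and ABCB4 (110 kb, -0.07), which were low and not called; in U266/LR7 ABCG2 (141 kb) stood at -0.18, not called.

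RefSeq windows of 300 bases (GRCh38.p14), from 250 bases before a start site to 50 after it, were matched for 7 of the 10 genes, and ABCC1, ABCC3 and ABCB4 had no entry. Windows are shown for ABCC4, ABCC5 and ABCG2, which fell in U266/s, and for ABCC10, which was not called lower in either line. Both strands were searched for GGGCGG (a GC box), CACGTG (an E-box), TGACNNNGC (the core of an antioxidant response element) and CCAAT, and capitals mark every match. Of the 5 ABCG2 and 2 ABCC10 windows, the first listed with the most matches is shown.
ABCC4: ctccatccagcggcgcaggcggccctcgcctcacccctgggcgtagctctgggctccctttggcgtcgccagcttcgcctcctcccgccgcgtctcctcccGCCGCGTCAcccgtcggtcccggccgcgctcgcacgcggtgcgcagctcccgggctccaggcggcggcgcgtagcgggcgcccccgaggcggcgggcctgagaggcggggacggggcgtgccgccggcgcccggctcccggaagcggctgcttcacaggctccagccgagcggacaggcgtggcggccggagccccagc
ABCC5: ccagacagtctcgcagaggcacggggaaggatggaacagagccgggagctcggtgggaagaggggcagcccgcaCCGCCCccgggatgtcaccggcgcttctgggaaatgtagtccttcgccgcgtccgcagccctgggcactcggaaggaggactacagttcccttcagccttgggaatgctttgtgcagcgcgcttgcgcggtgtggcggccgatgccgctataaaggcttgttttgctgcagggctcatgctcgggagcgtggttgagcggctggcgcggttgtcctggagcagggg
ABCG2: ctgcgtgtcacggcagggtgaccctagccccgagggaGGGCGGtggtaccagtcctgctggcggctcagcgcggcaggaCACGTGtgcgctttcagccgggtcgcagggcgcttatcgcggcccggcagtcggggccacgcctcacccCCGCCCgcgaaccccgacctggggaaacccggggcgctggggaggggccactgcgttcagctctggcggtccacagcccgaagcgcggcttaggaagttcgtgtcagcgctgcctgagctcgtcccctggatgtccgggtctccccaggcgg
ABCC10: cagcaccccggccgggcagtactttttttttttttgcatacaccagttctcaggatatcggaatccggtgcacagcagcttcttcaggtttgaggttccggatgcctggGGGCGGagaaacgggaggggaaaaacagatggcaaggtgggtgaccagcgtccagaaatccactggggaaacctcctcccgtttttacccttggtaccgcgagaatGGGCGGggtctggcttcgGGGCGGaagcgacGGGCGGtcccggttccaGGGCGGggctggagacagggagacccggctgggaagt

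The ABCC4 window (chr13:95301402-95301701, minus strand) held 1 TGACNNNGC match and no other motif, and was 79.7% G and C against a median of 58.7% over 35116 windows. The ABCC5 window (chr3:184017835-184018134, minus strand) held 1 GGGCGG match. The ABCG2 window (chr4:88158810-88159109, minus strand) held 2 GGGCGG matches and 1 CACGTG match. The ABCC10 window (chr6:43427613-43427912, plus strand) held 5 GGGCGG matches, and the other ABCC10 window held 1 CACGTG and 1 TGACNNNGC. Over all windows, 45% held GGGCGG, 34.6% CCAAT, 13.3% TGACNNNGC and 7.26% CACGTG. These are shares of single windows, so they are not the share for a gene with 5 windows (ABCG2) or 2 (ABCC10). Nor do they fit windows picked for the most matches. Some ABCG2 windows overlap and hold the same matches. Another ABCG2 window held 1 TGACNNNGC match, the motif also found for ABCC4. Of the 4 pumps that fell in U266/s, ABCC1 could not be searched, and no motif was found in all of the other 3. A match is only a description of these letters. The ABCC2 window and the first ABCB1 window held none of the 4 motifs, and the second ABCB1 window held 2 CCAAT matches.

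The genes most like each called pump across the 8 arrays were found by Pearson's r among 7411 or 7412 genes with a range of at least 1 log2 unit. For ABCC4 these were LPCAT2 (0.999) and PTPRK (0.998), for ABCC1 MAPK13 (0.986) and NRG2 (0.984), and for ABCC2 RASGEF1B (0.992) and PLAG1 (0.992). For ABCG2 they were CHD1 (0.997) and ARID4B (0.995), and for ABCC5 EDC3 (0.989) and VPS37A (0.985). Arrays of 1 line and 1 melphalan state share most of this variation, and between 420 and 920 genes had r over 0.9 with each pump. Among the pumps themselves, ABCC5 and ABCG2 had r = 0.88 and ABCC1 and ABCC4 r = 0.92, while ABCC1 and ABCG2 had r = 0.01. Values for ABCC2 were alike, 0.91 with ABCC4, 0.88 with ABCC1 and 0.85 with ABCB4, although ABCB4 was low on all arrays.

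Other ABC transporters were taken from a list of 38 genes, of which 36 were measured. Without melphalan 1 was higher and 6 were lower in U266/LR7, with a median of -0.06 against -0.04 for all genes. These 7 of 36 compare with 34.7% of all genes called. In U266/s 2 rose and 5 fell with melphalan (median 0.09, against 0.08 for all genes), 7 of 36 against 43.4% of all genes. In U266/LR7 0 rose and 2 fell (median 0.03 against 0.05), 2 of 36 against 6.62%. Many of the 36, among them ABCA6, ABCB5 and CFTR, were low on every array, where a change could hardly be measured. This limits what these shares and medians show. The 9 pumps had medians of -0.14, -0.25 and -0.02 in these comparisons. ABCD3, a peroxisomal fatty acid transporter, fell in both lines (-2.14 ± 0.15, adjusted p = 3.23e-06 in U266/s, to low signals, and -0.75 ± 0.15, adjusted p = 0.013 in U266/LR7). ABCA1, which exports cholesterol, also fell in both (-0.84 ± 0.22 and -1.27 ± 0.22, adjusted p = 0.00926 and 0.00631). In U266/s the peroxisomal ABCD2 (-1.19) and ABCE1, a ribosome recycling factor (-0.97), fell too. Averaged over treatments, 2 were higher and 6 lower in U266/LR7, 8 of 36 against 33.5% of all genes. Of those with the largest fold, the lipid transporter ABCA3 (-1.26, adjusted p = 0.000733) and the mitochondrial ABCB10 (-0.96) were lower. ABCD3 (1.11, with overlapping lines) and ABCA7 (0.63) were higher.

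Of 15 measured transcription factors and partners known to act on pump genes, 1 was higher and 9 were lower in U266/LR7 on average (median -0.43, against -0.07 for all genes), 10 of 15 against 33.5% of all genes called. MYC was at 9.73 to 12.45 in U266/s and at 6.54 to 6.86 in U266/LR7 (-4.50 ± 0.49, adjusted p = 0.00053). RXRA, the partner of the xenobiotic receptors, was lower as well (-2.88 ± 0.15, adjusted p = 2.9e-05). In U266/s 4 rose and 8 fell with melphalan (median -0.54, against 0.08), 12 of 15 against 43.4% of all genes, led by AHR, the aryl hydrocarbon receptor (-2.96), and MYC (-2.47). In U266/LR7 only KEAP1, the inhibitor of NRF2, was called, and it rose by 0.55 (adjusted p = 0.0293). That is 1 of 15, near the background of 6.62% of all genes. Of 8 measured genes that anchor or traffic pumps, 1 rose and 4 fell in U266/s (median -0.43, 5 of 8 against 43.4% of all genes). Among those that fell was RDX, the radixin gene that tethers ABCC2 at the membrane (-2.16, adjusted p = 3.82e-06). With melphalan in U266/LR7, 0 of 8 were called (median 0.05), against 6.62% of all genes. RDX signal was 9.23 and 9.02 without and 7.02 and 6.91 with melphalan in U266/s. RAB5A, of early endosomes, was higher in U266/LR7 on average (1.25) and fell in U266/s (-0.56), and NHERF1, a scaffold of membrane pumps, was lower in U266/LR7 (-0.63).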

How the data were processed

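Per the submitters' processing notes, the authors summarised 8 one-colour arrays by RMA in Affymetrix Expression Console and deposited log2 values; the sources used here give no versions. Of 33297 transcript clusters, 19460 carried 1 platform symbol; symbols were updated by gene ID (19429 matched), and the brightest cluster represented a gene, which left 18417 genes. Limma 3.58.1 (R 4.3.3) with an intensity trend was fitted on all genes. Line and inhibitor averages came from an additive fit (4 residual degrees of freedom), and all within-line and within-melphalan comparisons from a fit with the line by melphalan term (3 residual degrees of freedom), each over all arrays, because no condition was replicated. Errors are the fit's SE. The code was tested on simulated arrays. Alternatives were median centring, quantile normalization, a filter on dim genes, no trend, other model terms (transfection as 3 levels among them), the dimmest cluster and each array left out; fits on 4 arrays and the inhibitor by line term were chosen after seeing the data. All 10 pumps are named whatever their test; of the other ABC list up to 4, and of each other list up to 2, called genes of largest absolute fold per comparison are named. Members, lists and rules were chosen with earlier results of these data known. The number of arrays limits the precision.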

Additional observations from a re-analysis of the deposited data

Results flagged for a closer look

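The melphalan response differed between the lines for ABCC4 (interaction, U266/LR7 minus U266/s, 1.94 log2 units), ABCG2 (1.81) and ABCC5 (1.03), by the limma interaction term. ABCC4 was low on all 4 U266/LR7 arrays, so its term does not compare 2 measurable responses.

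The inhibitor pairs of ABCC1 and of ABCG2 ran one way in both pairs of U266/LR7 and the opposite way in both pairs of U266/s. In each line the pair with melphalan may also hold a difference in transfection. The difference between the lines was -0.73 for ABCC1 and 0.39 for ABCG2, and neither passed the test of the inhibitor by line term (limma adjusted p = 0.886 for each, unadjusted p = 0.00666 and 0.105). No gene was called for that term.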

How the results depend on the processing

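Of 19 called pump differences, 0 changed direction in 141 comparisons with other settings or in 152 with 1 array left out. Of these, 1 and 5 lost the call, all named with the ABCC1 and ABCC5 results. Many of these comparisons could not move the difference itself. The dimmest cluster was the only cluster of each pump, and dropping the trend or adding interaction terms changed only the errors. For differences within a line or a melphalan state, leaving out an array of the other one did the same. The lack of reversals was therefore partly fixed by the design. Averaged between the lines, 5 pumps were called in a fit with every two-way term and 5 in one with the line by melphalan term, in place of 3 (ABCC5 and ABCG2 added, higher in U266/LR7). For melphalan in U266/LR7, 0 were called with transfection as 3 levels, and 0 to 1 with single arrays left out. Under melphalan, 3 of the 4 pumps above the median signal differed between the lines; ABCC4 and ABCC2 were not tested there. Of 44 uncalled differences, 14 of 319 comparisons with other settings and 42 of 352 with 1 array left out changed sign. For the inhibitors, the fit with every two-way term called 20 genes in all. The fit with the line by melphalan term called 8, and 0 pumps were called in either. In U266/LR7, melphalan called 1220 genes in all, but 679 with transfection as 3 levels, 306 without its melphalan array and 250 without its array of both agents. Over all genes, the line average called 6172, but 9482 and 9846 with those added terms; melphalan in U266/s called 7984, but 4258 without the U266/s control; the interaction called 4394, but 2443 without that control and 2552 without the U266/LR7 melphalan array; and the lines under melphalan gave 9529, but 6152 without the latter array. No paired analysis was possible because each condition has 1 array and the labels carry no replicate numbers; the pairs given for the pumps match arrays by treatment. Low signal limits ABCB1 and ABCB4 on all arrays, and ABCC2 and ABCC4 in U266/LR7.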

Other observations

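Glutathione enzymes supply glutathione and make the conjugates that ABCC1 and ABCC2 export. Of 12 measured genes, 4 were higher and 2 lower in U266/LR7 on average (median 0.39, against -0.07 for all genes), and 6 did not pass. Of all genes 18% were higher and 15.5% lower. Without melphalan 5 were higher and 3 lower (median 0.06, against -0.04), with 16.9% and 17.8% of all genes. Under melphalan 6 were higher and 2 lower (median 0.34, against -0.08), with 27.7% and 24% of all genes. The average therefore also holds the melphalan response of U266/s, whose median in this list was -0.41. GSTM1 was at 10.90 to 11.12 in U266/LR7 and 7.56 to 8.60 in U266/s (2.98 ± 0.20, limma adjusted p = 8.38e-05). MGST1, the microsomal transferase, was low in U266/LR7 (4.33 to 4.52) and at 7.93 to 9.95 in U266/s (-4.47 ± 0.35, adjusted p = 0.000138). With melphalan 3 rose and 5 fell in U266/s, where 43.4% of all genes were called, and 0 were called in U266/LR7, where 6.62% were. GSTP1 rose in U266/s from 11.73 and 11.49 to 13.00 and 12.88 (1.33 ± 0.11, adjusted p = 6.4e-06), where U266/LR7 was at 12.50 to 12.87 on all arrays. MGST1 fell in U266/s by 1.61.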
